A study of Mus musculus with 14 samples.

Results

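H3K27me3 superdomains were long stretches of an autosome in which called H3K27me3 sites followed each other at short distance. Sites of the deposited list on chromosomes 1 to 19 were sorted by position, neighbours with a gap under 5 kb were joined, and joined intervals with a span of at least 50 kb were kept. Of the 40077 joined intervals, which were made from 144903 autosomal sites, 1047 met this rule. The members were thus chosen on the measured positions of the sites themselves. Their number, span and density of sites are therefore given as a description with no test, and the genes, the sequence and the edges are set beside all autosomal sequence.

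The sites came from NG3 cells, a single clone of immortalised mouse embryo fibroblasts (iMEF) with Ash2l fl/fl alleles and an inducible Cre-ER, in which exon 4 of the endogenous Ash2l had been deleted. All libraries share this deletion and the introduced fusion FKBP-HA2-ASH2L, in which the F36V mutant of FKBP12 is linked through HA tags to human ASH2L. H3K27me3 ChIP-seq was performed on 6 groups with 2 replicates each, untreated control cells and cells exposed to the PROTAC dTAG-13, which recruits Cereblon to the fusion and leads to its degradation, for 30 min, 2 h, 4 h, 8 h and 16 h. Inputs were prepared for the control and for the 16 h time point. The list unites the sites of all samples of the paper's first H3K27me3 experiment, and its second H3K27me3 experiment was not used. The list gives a position for each site but no value per library. A site may thus come from any of the groups, and control and treated cells were not compared here. The read depth behind a site is unknown.

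H3K27me3 is set by Polycomb repressive complex 2 (PRC2), in which EZH1 or EZH2 transfers the methyl groups and EED binds the finished mark, which favours its spread to neighbouring nucleosomes. In mammals, PRC2 is often found at CpG-rich promoters of silent developmental regulators, such as the Hox genes, and in differentiated cells the mark can extend far beyond such promoters. COMPASS complexes, to which ASH2L belongs, methylate H3K4 and are generally viewed as antagonists of Polycomb.

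The promoters of 5 genes show the kinds of gene start met in and beside superdomains. Lhx1 encodes a homeobox transcription factor and has a CpG-rich start inside, and Hoxb4 lies inside with a start of intermediate CpG content. Krt2, a keratin of the epidermis, lies inside with fewer CpGs, close to the median of 7 over autosomal promoters. Aatf, which encodes an apoptosis-antagonizing factor that binds to RNA polymerase, and R3hcc1l start just outside a superdomain. Each sequence runs 5′ to 3′ on the strand of the gene, from 250 bases before to 50 after the start according to RefSeq (GRCm38.p6), with CpGs in capitals.
Lhx1, chr11:84525485-84525784, minus strand: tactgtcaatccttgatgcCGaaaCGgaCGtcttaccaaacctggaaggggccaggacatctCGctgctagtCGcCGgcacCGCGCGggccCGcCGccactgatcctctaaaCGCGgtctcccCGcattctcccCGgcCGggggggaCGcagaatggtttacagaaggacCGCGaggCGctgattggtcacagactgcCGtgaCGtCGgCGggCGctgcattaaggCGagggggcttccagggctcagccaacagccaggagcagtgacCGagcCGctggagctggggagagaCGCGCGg
Hoxb4, chr11:96318017-96318316, plus strand: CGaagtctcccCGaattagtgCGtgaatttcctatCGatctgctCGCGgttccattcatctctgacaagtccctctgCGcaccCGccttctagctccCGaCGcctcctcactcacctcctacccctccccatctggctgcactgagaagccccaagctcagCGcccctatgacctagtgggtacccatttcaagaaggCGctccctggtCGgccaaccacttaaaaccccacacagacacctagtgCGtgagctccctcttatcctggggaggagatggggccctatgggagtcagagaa
Krt2, chr15:101818120-101818419, minus strand: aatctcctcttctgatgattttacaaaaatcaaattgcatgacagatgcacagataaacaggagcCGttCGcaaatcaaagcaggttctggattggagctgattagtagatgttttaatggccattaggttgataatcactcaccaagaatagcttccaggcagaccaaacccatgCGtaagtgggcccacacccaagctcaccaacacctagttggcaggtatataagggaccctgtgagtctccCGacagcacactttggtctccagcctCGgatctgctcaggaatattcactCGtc
Aatf, chr11:84513452-84513751, minus strand: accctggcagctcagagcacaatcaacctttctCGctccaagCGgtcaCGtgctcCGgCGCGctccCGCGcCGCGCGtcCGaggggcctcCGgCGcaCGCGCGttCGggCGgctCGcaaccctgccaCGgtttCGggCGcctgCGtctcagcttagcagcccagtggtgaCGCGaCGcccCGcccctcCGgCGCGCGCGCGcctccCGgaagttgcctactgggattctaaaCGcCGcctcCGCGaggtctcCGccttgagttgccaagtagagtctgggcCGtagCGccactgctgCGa
R3hcc1l, chr19:42518555-42518854, plus strand: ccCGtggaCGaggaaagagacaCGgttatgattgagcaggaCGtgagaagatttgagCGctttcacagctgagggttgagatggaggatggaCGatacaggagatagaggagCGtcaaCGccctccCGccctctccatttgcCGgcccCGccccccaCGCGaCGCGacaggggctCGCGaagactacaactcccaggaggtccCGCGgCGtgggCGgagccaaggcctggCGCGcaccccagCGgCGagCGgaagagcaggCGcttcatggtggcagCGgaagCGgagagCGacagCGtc
The promoter of Lhx1 held 31 CpGs, that of Hoxb4 14 and that of Krt2 6. Among 31396 autosomal promoters of the same length, 10.9% held at least as many CpGs as Lhx1, 36.8% as many as Hoxb4 and 56.8% as many as Krt2. All 3 starts were covered by an H3K27me3 site. Outside the superdomains, Aatf held 43 CpGs, a number that 2.70% of the promoters reached, and R3hcc1l held 31, and neither start was covered by a site. The sequences thus differ in CpG content among starts inside, and starts with many CpGs occur on both sides of an edge.

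The superdomains had a summed length of 96.2 Mb, which was 3.90% of the 2463 Mb of the autosomes. They held 33310 sites, or 23.0% of all autosomal sites, and 42.8% of the length covered by sites. Spans ranged from 50.1 to 430.1 kb with a median of 75.7 kb and an interquartile range of 59.5 to 105.1 kb. Of the superdomains, 274 (26.2%) spanned under 60 kb, 297 (28.4%) reached 100 kb and 41 reached 200 kb. The 3 members just above the limit had spans of 50095, 50101 and 50126 bp, and the 3 joined intervals just below it had 49999, 49959 and 49942 bp, so the limit divides a continuous range.

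Superdomains were made of many sites rather than of few broad ones. The median number of sites was 29, with a range of 4 to 120, and 58.0% of the sites inside were narrower than 1 kb. In 521 of the 1047 superdomains the widest site was under 10 kb, and in 12 a single site took up more than 50% of the span. Still, broad sites were mostly found here, since 1106 of the 1442 autosomal sites of at least 10 kb (76.7%) lay inside. Joining by the 5 kb rule favours this, because a broad site fills much of the span that the rule asks for. When only gaps under 1 kb were joined, 165 of the superdomains still held an interval of at least 50 kb.

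Sites covered 69.5% of the summed span, and single superdomains ranged from 23.3 to 97.9% with a median of 66.96%. The covered share was above 90% in 60 superdomains and under 50% in 156. It was higher in longer superdomains, with 63.0% for 509 spans of 50 to under 75 kb, 67.2% for 241 spans of 75 to under 100 kb, 72.7% for 256 spans of 100 to under 200 kb and 82.6% for the 41 longest. Across the 1047 superdomains, which share all libraries, Spearman's rho was 0.33 between span and covered share, 0.61 between covered share and GC content, and -0.07 between covered share and the share of repeats. GC-rich superdomains were thus more fully covered, and the part of GC content in the calling of sites was not tested.

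**Figure D1:**
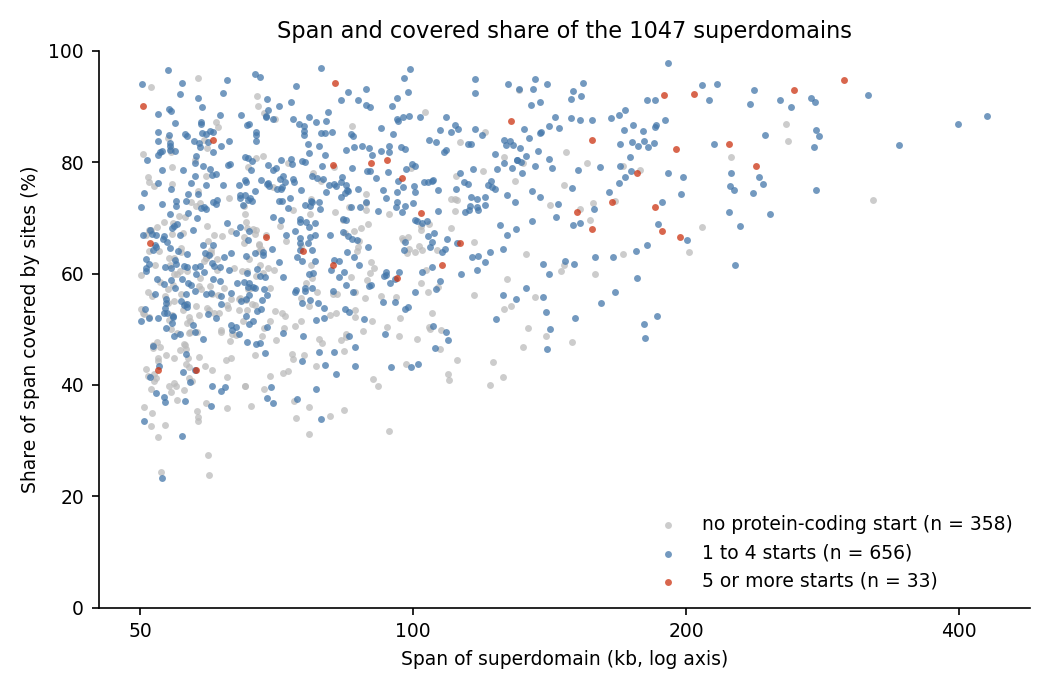
Span (kb, log axis) against the share of the span covered by sites (%) for each of the 1047 superdomains. Colours give the number of protein-coding starts inside, with 358 superdomains that have none, and the lowest covered shares, down to 23.3%, are found among the shorter spans.

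Among the 5 most fully covered superdomains, the highest share, 97.9%, was seen over Cacna2d2, which encodes an auxiliary subunit of voltage-gated calcium channels. It was followed by 96.9% at Plch2, a phospholipase C, by 96.7% at Prkcz and Gabrd, which encode protein kinase C zeta and the delta subunit of a GABA receptor, by 96.6% at Car4, a membrane-bound carbonic anhydrase, and by 95.8% at Slc22a7 and Ttbk1, an organic anion transporter and a tau tubulin kinase. These superdomains had 6 to 11 sites each. At the other end, shares of 23.3% at Fbxw27 and Spink8, 23.8% within the body of Unc79, 24.4% near Nog, which encodes the BMP antagonist noggin, 27.5% near Wdr11 and 30.6% in a superdomain whose nearest start, that of Rtl1, was 197623 bp away came from 23 to 26 sites, each of at most 3.39 kb. Such sparse superdomains are rows of small sites that the joining rule bridged.

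The longest superdomain spanned 430.1 kb (chr5:35107171-35537276), with 88.2% covered by 85 sites, and held the starts of Adra2c, an alpha-2 adrenergic receptor, of Hmx1, a homeobox transcription factor, and of Cpz, a carboxypeptidase. The next, of 398.7 kb (chr12:112087643-112486304), held Aspg, an asparaginase, and Kif26a, a kinesin-like protein. A superdomain of 343.6 kb (chr9:48628999-48972637) held Zbtb16, which encodes the transcription factor PLZF and made up 52.9% of the span, together with Htr3a and Htr3b, the subunits of the serotonin-gated channel.

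The fourth in length, of 321.2 kb (chr2:74905029-75226276), held no protein-coding start. It was made of 120 sites, more than any other superdomain, of which the widest was 10.5 kb. Its nearest protein-coding start was that of Mtx2, a mitochondrial import protein, at 79.2 kb on the side of the Hoxd cluster, and on the other side Hnrnpa3 followed at 433.0 kb. The superdomain thus lay in a stretch without protein-coding starts.

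Among the other longest superdomains, 3 held regulators of organ and cell identity. Pax2, needed for kidney and inner ear development, was the only protein-coding gene to start in 317.2 kb (chr19:44583393-44900588), of which 92.1% was covered and 28.8% belonged to 1 site. Pax5, the regulator of B cell commitment, filled 66.9% of 277.8 kb (chr4:44479920-44757697), where Zcchc7 also started. Lhx1 was the only start in 275.0 kb (chr11:84514380-84789372), yet its body filled 2.64% of the span. Pax2 and Lhx1 thus made up a minor part of their superdomains, whereas Pax5 made up most of it.

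The remaining 5 of the 12 longest reached from 276.8 to 298.8 kb. The Hoxc cluster is described with the gene clusters. The others held Vash1, an inhibitor of angiogenesis, with 42.3% of the span in the body of the nuclear receptor gene Esrrb (chr12:86402960-86683239), Crhr1, Sppl2c and Mapt, which encode the receptor of corticotropin-releasing hormone, a peptidase and the microtubule protein tau (chr11:104006610-104285004), Golga7b and Crtac1 (chr19:42239377-42517610), and Cntn2 and Nfasc, which encode adhesion proteins of axons (chr1:132512244-132789054). Their covered shares lay between 74.96 and 85.8%.

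Superdomains held the starts of 1221 of 20807 autosomal protein-coding genes, which sets the background at 5.87% for every gene list below. The density of protein-coding starts was 12.7 per Mb, above the 8.45 per Mb of the autosomes but below the 16.8 per Mb of the 5471 joined intervals of 10 to under 50 kb. A site covered the start of 1074 of the genes inside (88.0%), compared with 17.0% of all autosomal protein-coding genes, a difference that the rule largely sets. Genes starting inside were similar in length to all genes, with a median of 17.2 kb against 17.6 kb. Of the 1221 genes, 850 lay wholly within a superdomain with a median length of 10.3 kb, and 371 extended beyond it with a median of 65.7 kb.

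CpG-rich starts were less frequent inside than among all genes. CpG-rich refers here to starts for which the flanking sequence, 500 bp on each side, reached 50% GC and an observed CpG count of 0.6 or more relative to expectation. This held for 444 of the 1221 genes inside (36.4%), compared with 45.7% of all autosomal protein-coding genes and 32.8% of those in joined intervals of 10 to under 50 kb. Conversely, 4.67% of the CpG-rich genes started inside (95% Wilson interval 4.26 to 5.11%) and 6.88% of the others (6.43 to 7.36%). When only gaps under 1 kb were joined, however, 51.0% of the starts inside were CpG-rich, which is above the share of all genes. The intervals do not overlap, but they cover the counting of genes only, and neighbouring genes are not independent.

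Many superdomains did not contain the start of a protein-coding gene. There were 358 without one (34.2%), 414 with 1 and 275 with 2 or more, of which 33 had at least 5. The share without a start was 43.2% for spans under 75 kb and 14.6% for spans of at least 200 kb. The superdomains without a start were at a median distance of 49.8 kb from the nearest one, and at most 505 kb away. Of the 358, 161 overlapped the body of a protein-coding gene and 159 lacked the start of any annotated gene, non-coding genes included. A single gene body filled more than 80% of the span in 212 of all superdomains.

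Gene clusters were present in 12 superdomains that held at least 4 protein-coding genes with the same symbol stem. The Hox clusters stood out by their cover. All 10 Hoxb genes started in a superdomain of 263.1 kb (chr11:96144694-96407753), of which 92.9% was covered by 25 sites, and all 9 Hoxc genes started in one of 298.8 kb (chr15:102851497-103150257), of which 94.7% was covered, also by 25 sites. Hox genes encode the homeobox factors that set positions along the body axis, and a site covered each of these 19 starts. In the Hoxd cluster, Hoxd1, Hoxd3 and Hoxd4 started in a superdomain of 115.6 kb (chr2:74708595-74824169), with 72.1% covered by 45 sites. A site covered the start of Hoxd1 but not those of Hoxd3 and Hoxd4, whose annotated records begin at nearly the same upstream position, and none of Hoxd8 to Hoxd13 started inside or had a site over its start. No Hoxa gene started in a superdomain, and of the 11 only Hoxa2 had a site over its start. The 4 clusters thus fell into 2 that were enclosed whole, 1 that was enclosed at its 3′ side and 1 that was not enclosed.

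**Figure D2:**
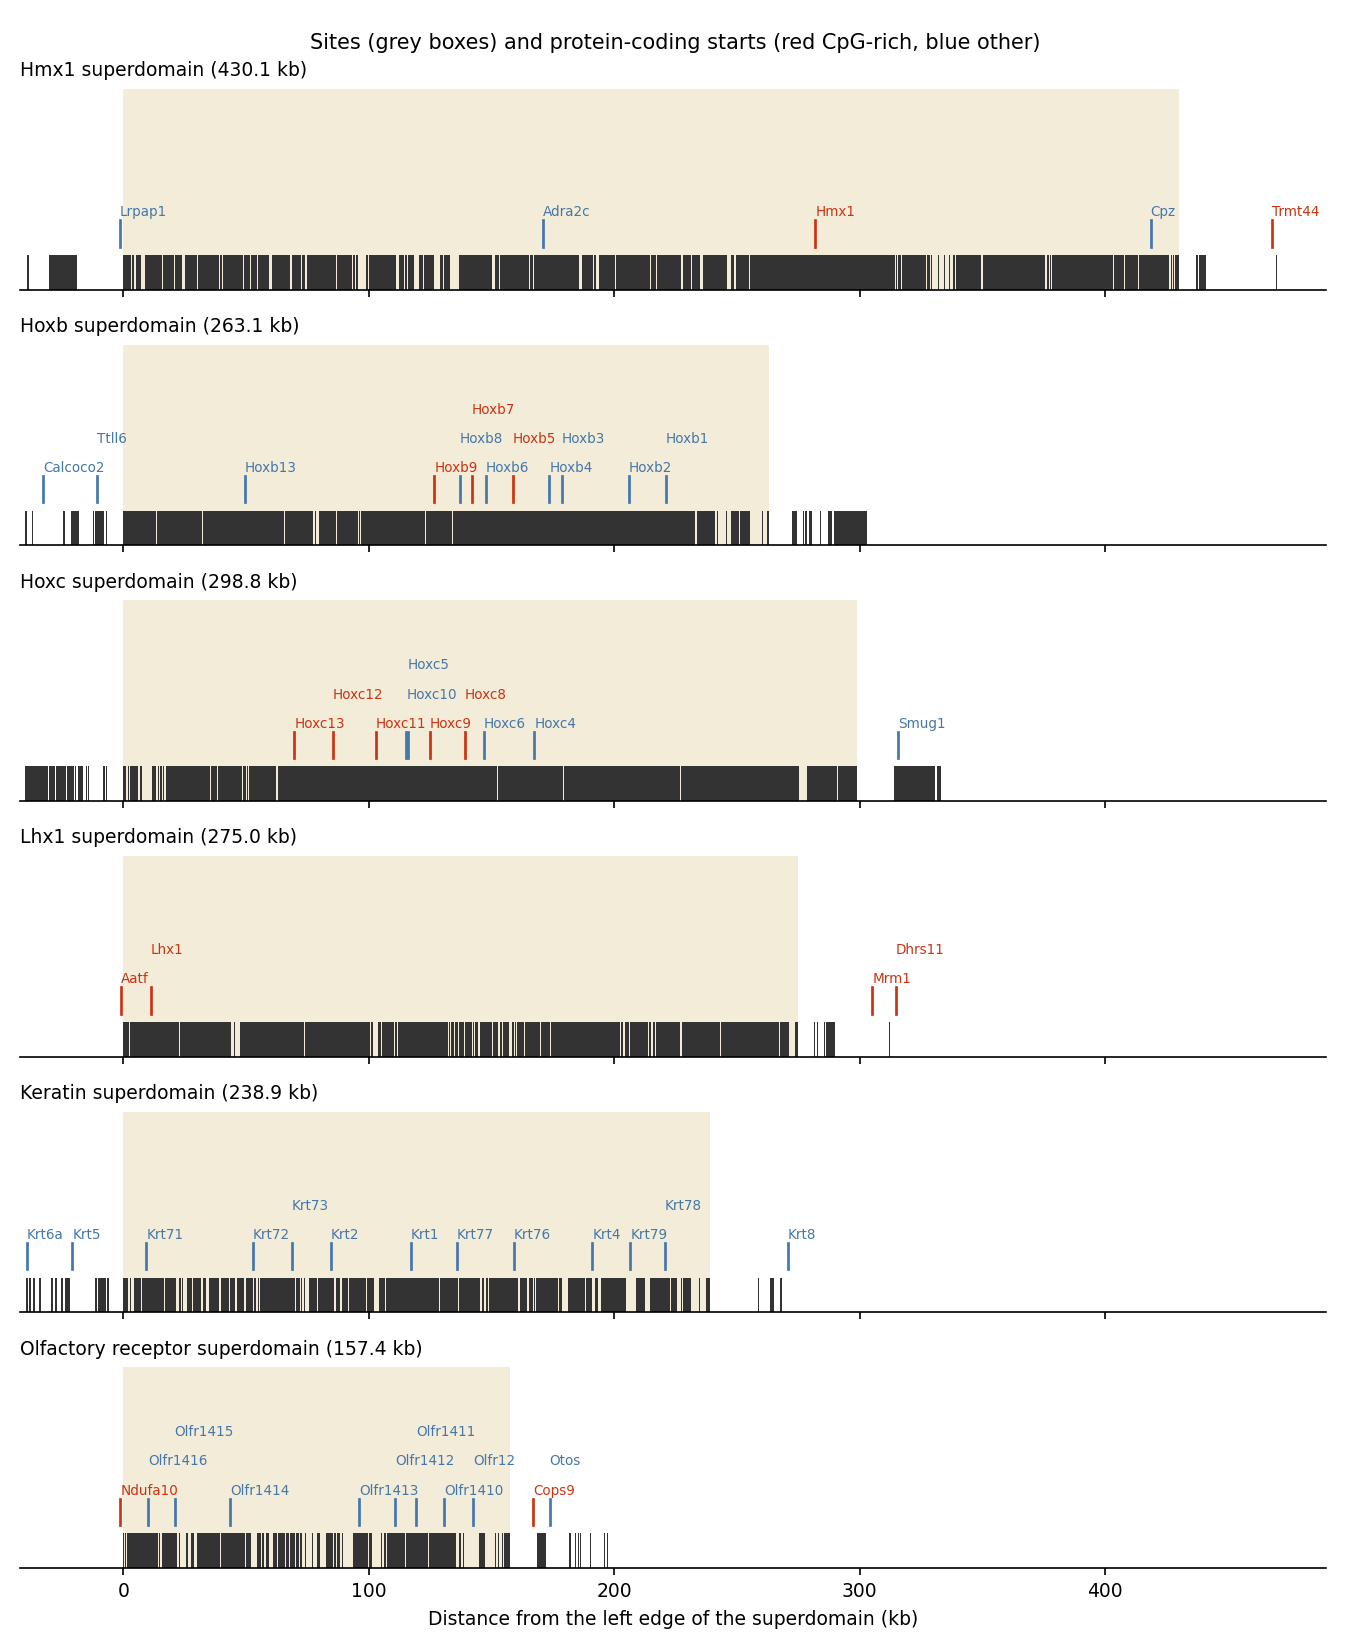
Sites (grey boxes) and protein-coding starts (vertical ticks, red for CpG-rich and blue for other starts) along 6 superdomains, with the distance from the left edge in kb and the superdomain shaded. Hoxb and Hoxc genes lie within nearly continuous cover, keratin and olfactory receptor genes among many smaller sites, and Aatf lies 0.858 kb outside the left edge of the Lhx1 superdomain.

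Keratin genes formed clusters in 2 superdomains. A superdomain of 238.9 kb (chr15:101733719-101972626) held 10 keratin genes from Krt71 to Krt78, with 79.3% covered by 66 sites, and another of 101.96 kb on the same chromosome held Krt84, Krt82, Krt90 and Krt75. Keratins form the intermediate filaments of epithelia and hair. None of these 14 keratin starts was CpG-rich, and a site covered 12 of them, the exceptions being Krt72 and Krt79. Kallikrein genes, which encode serine proteases of skin and glands, formed 2 such groups of 5, in superdomains of 107.7 and 68.9 kb.

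A superdomain of 157.4 kb (chr1:92475156-92632585) held 8 olfactory receptor genes, of which all but Olfr12 had a site over the start. It was bounded by Ndufa10, a subunit of respiratory complex I that started 1296 bp outside the left edge, and by Cops9, a subunit of the COP9 signalosome that started 9.40 kb outside the right edge. Both starts were CpG-rich and without a site. Interferon alpha genes were represented by 6 of 13, in a superdomain of 57.7 kb with a low cover of 42.6%. The remaining clusters comprised 4 genes each, namely the secreted phospholipases Pla2g2c, Pla2g2f, Pla2g2d and Pla2g5, the retinol dehydrogenase genes Rdh16, Rdh19, Rdh16f2 and Rdh7, the acetyltransferase genes Nat8f6, Nat8f5, Nat8 and Nat8f2, and the immune GTPases Gimap6, Gimap7, Gimap1 and Gimap5, with covers between 42.7 and 67.6%. Members of such families can be near-identical, and filtering was stated to follow ENCODE without a cutoff for reads with several matches, so single genes within them are uncertain.

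The superdomain with the largest number of starts (chr10:77652799-77837551) was filled to 81.7% by the body of Tspear, which also started inside. It had 21 protein-coding starts in 184.8 kb, among them Krtap12-1, Krtap10-4 and Krtap10-10, which encode keratin-associated proteins of hair, and 17 gene models with provisional symbols. A superdomain of 165.8 kb (chr7:30761995-30927772) held 8 starts, with Dmkn and Krtdap of the epidermis, the fatty acid receptors Ffar1, Ffar2 and Ffar3, the B cell gene Cd22, the myelin gene Mag and the hepcidin gene Hamp2.

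Developmental transcription factors started in superdomains more often than all genes. Over 14 lists of such factors, 91 of 241 autosomal genes (37.8%) started in a superdomain, compared with 5.87% of all protein-coding genes. These 91 genes lay in 69 superdomains, and 87 of them had a site over the start. A further 54 of the 241 had such a site but lay outside. The superdomains with a listed factor had a median cover of 76.5% and a CpG ratio of 0.264, compared with 66.3% and 0.211 for the other 978. Their median span was 84.3 kb against 75.5 kb. The lists were drawn up with earlier results of these data known, and the share is a description.

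The shares varied between families of homeobox and Pax factors. Among the Lhx and Isl genes, which specify neurons and other cell types, 7 of 12 started inside (Lhx1, Lhx2, Lhx3, Lhx4, Lhx5, Lmx1b and Isl1), as did 22 of 39 Hox genes and 5 of 9 Pax genes (Pax2, Pax3, Pax5, Pax6 and Pax7). The Nkx genes had 7 of 14 inside, among them Nkx2-1 of lung and thyroid, Nkx2-5 of the heart and Nkx2-2 of the spinal cord, with Nkx1-1, Nkx2-3, Nkx3-2 and Nkx6-2. All 14 Nkx genes had a site over the start, so the others lay in shorter intervals. The Irx genes had 3 of 6 (Irx1, Irx4 and Irx6) and the family of Six2 3 of 6, with Six2 and Six3 together in 224.1 kb and Six6 apart. The POU genes had 5 of 14 (Pou2f2, Pou3f1, Pou3f3, Pou4f2 and Pou4f3). In contrast, of the Dlx and Msx genes only Msx3, 1 of 9, was inside.

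Proneural and myogenic bHLH factors had 13 of 29 genes inside. The longest of their superdomains were those of Bhlhe23 (173.7 kb), Neurog1 (160.9 kb), the myogenic factor Myod1 (112.6 kb) and Neurog3 (104.8 kb). Among the Sox genes 5 of 18 were inside, with Sox1 in 247.7 kb and Sox2, Sox10, Sox14 and Sox21 in 54.8 to 69.1 kb. The T-box genes had 4 of 16 (Eomes, Tbx5, Tbx20 and Tbx21), the Fox genes 9 of 41 (Foxa2, Foxb1, Foxd4, Foxf1, Foxi2, Foxi3, Foxl2, Foxn4 and Foxo6), the Gli, Zic and Klf genes 6 of 23 (Gli1, Klf17, Zic1, Zic2, Zic4 and Zic5) and the Gata genes 1 of 5 (Gata5). Except for the Gata and the Dlx and Msx genes, with few members, the lower end of the 95% Wilson interval of each of the 14 lists lay above the background.

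**Figure D3:**
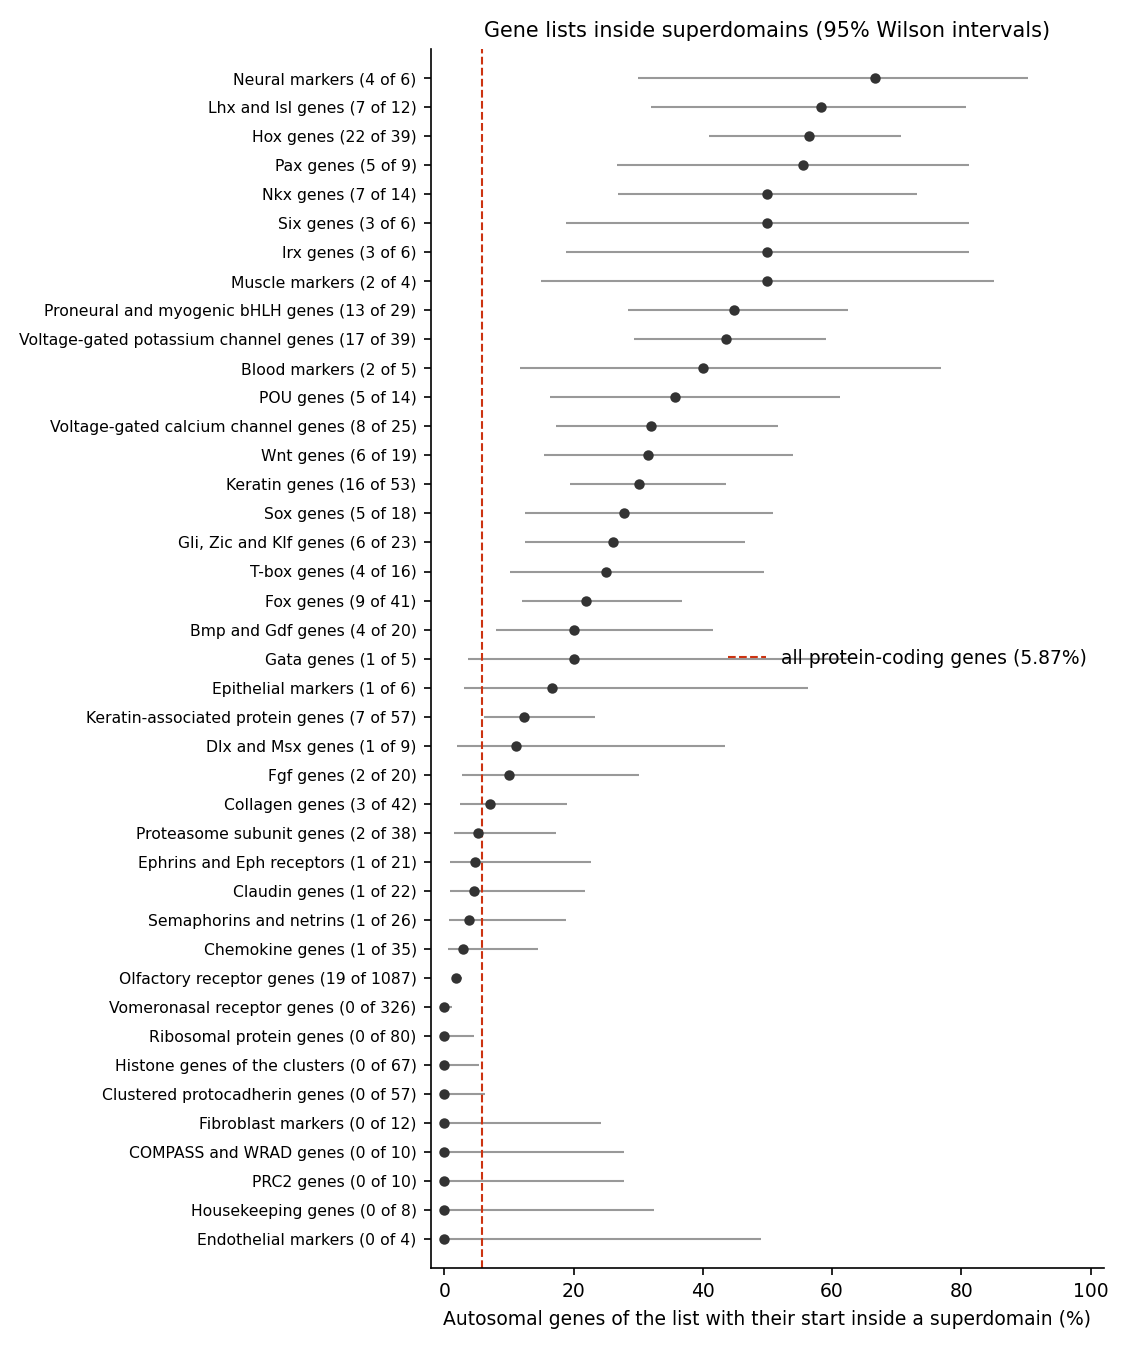
Share of the autosomal genes of each of 41 lists that started in a superdomain (%, points) with 95% Wilson intervals (lines). The dashed line gives the 5.87% of all protein-coding genes, with homeobox, bHLH and ion channel lists to its right and receptor, histone and ribosomal protein lists at or near 0.

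Genes of voltage-gated ion channels also started inside at shares above the background. Voltage-gated potassium channel genes had 17 of 39 inside (43.6%, 95% interval 29.3 to 59.0%), of which Kcna1 and Kcna6 shared 226.4 kb and Kcng1 lay in 188.4 kb. Voltage-gated calcium channel genes had 8 of 25 (Cacna1e, Cacna1h, Cacna1s, Cacna2d2, Cacna2d4, Cacng2, Cacng4 and Cacng5). Keratin genes had 16 of 53 and keratin-associated protein genes 7 of 57.

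Genes of signals and of other surface and matrix proteins are given by family, and differences between the families were not tested. The Wnt genes had 6 of 19 inside (Wnt3, Wnt3a, Wnt4, Wnt7a, Wnt8b and Wnt9b) and the Bmp and Gdf genes 4 of 20 (Bmp2, Bmp10, Gdf2 and Gdf10). The Fgf genes had 2 of 20, the neighbours Fgf3 and Fgf4, with an interval of 2.79 to 30.1% that includes the background. Ephrins and Eph receptors had 1 of 21 (Epha8), semaphorins and netrins 1 of 26 (Ntng2), claudins 1 of 22 (Cldn13), chemokines 1 of 35 (Cxcl14) and collagens 3 of 42 (Col13a1, Col26a1 and Col27a1). The intervals of these 5 lists include the background.

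Several lists had few or no genes inside. Olfactory receptor genes had 19 of 1087 inside (1.75%, 95% interval 1.12 to 2.71%), below the background, in 5 superdomains that included Olfr520 and Olfr521 in 174.2 kb. None of 326 vomeronasal receptor genes, of 67 histone genes, of 80 ribosomal protein genes or of 57 clustered protocadherin genes started inside. The upper ends of their intervals were 1.16, 5.42, 4.58 and 6.31%, but as for all lists these intervals take genes as independent, and clustered genes lie inside or outside together. Proteasome genes had 2 of 38 inside (5.26%, 95% interval 1.46 to 17.3%), close to the background, namely Psmb8 and Psmb9, which encode interferon-inducible subunits of the immunoproteasome and lay in the same superdomain. None of 10 PRC2 genes, of 10 COMPASS genes or of 8 housekeeping genes was inside, but with so few genes the upper ends were 27.8% for the first 2 lists and 32.4% for the last.

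Markers of fibroblasts and of other cell types were counted in view of the label of the cells. None of 12 fibroblast markers started in a superdomain, which at this number allows a share of up to 24.2%, although 3 had a site over the start. Of the neural markers 4 of 6 were inside, among them Neurog1, Olig2 and Pax6, of the muscle markers 2 of 4 (Myod1 and Pax7), of the blood markers 2 of 5 (Cd3e and Tal1) and of the epithelial markers 1 of 6 (Esrp1). None of 4 endothelial markers was inside, with 1 having a site over the start. The lists are short, and several of the markers are also in the lists of transcription factors.

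The superdomains were spread unevenly over the autosomes. Chromosome 11 had 6.91% of its length in superdomains, chromosome 7 6.12% and chromosome 2 5.94%, whereas chromosome 3 had 1.10%, chromosome 16 1.54% and chromosome 10 2.09%. The median over the 19 autosomes was 3.86% with an SD of 1.60. Gene-dense autosomes had higher shares, with Pearson's r = 0.82 and Spearman's rho = 0.83 between the share and the number of protein-coding genes per Mb. This is a description over 19 chromosomes of the same libraries. Neighbouring superdomains were 423 kb apart in the median of 1028 pairs, and 83 pairs were separated by under 10 kb.

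**Figure D4:**
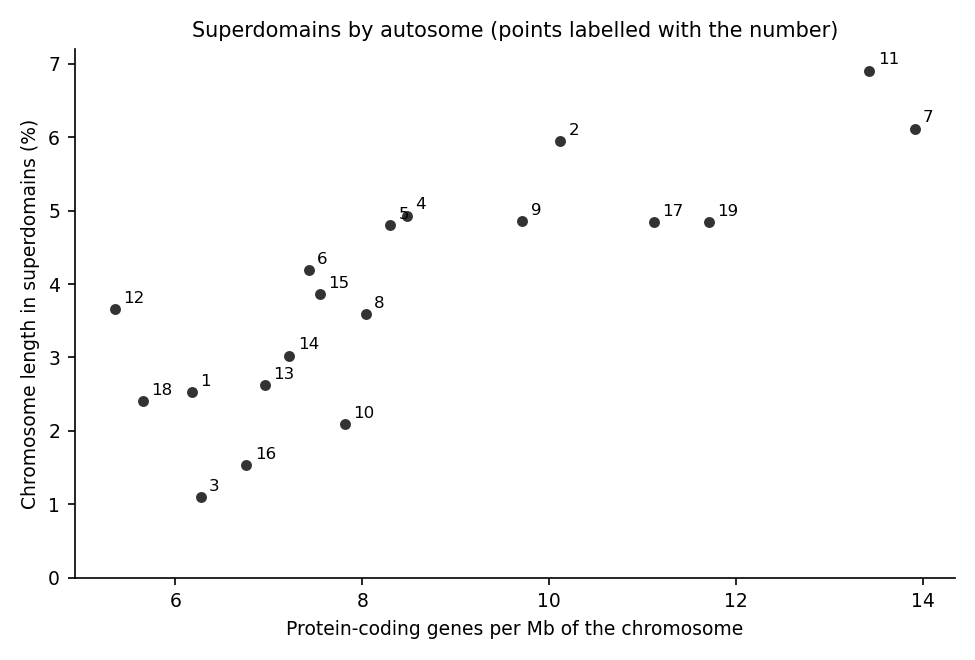
Share of each autosome within superdomains (%) against its number of protein-coding genes per Mb, with points labelled by chromosome number. Chromosomes 11 and 7 are highest on both axes, and chromosome 3 has the lowest share with 1.10%.

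Superdomains were richer in GC and poorer in repeats than the autosomes. The GC content was 47.2% compared with 41.9%, the ratio of observed to expected CpG was 0.217 compared with 0.194, and repeats made up 23.2% compared with 33.5% of the bases. Joined intervals of 10 to under 50 kb had similar values of 45.9%, 0.216 and 24.8%, so these features were not particular to long spans. Within superdomains, the sites had a GC content of 48.8% and 19.4% repeats, and the gaps between them, with a median length of 521 bp, had 43.4% and 31.6%. The gaps were thus closer to the autosomal average than the sites. How well reads could be placed in repeats was not measured, and its part in the gaps was not tested.

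The 2094 edges of the superdomains lay nearer to gene starts than evenly spaced points. The nearest protein-coding start was 26.7 kb away in the median, compared with 77.1 kb for 24620 points placed every 100 kb along the autosomes, and 16.6% of the edges compared with 7.51% of the points were within 5 kb of a start. As superdomains lie in gene-dense sequence, points along the autosomes are not matched to them in this respect. Edges were located in the body of a protein-coding gene in 37.5% (95% Wilson interval 35.5 to 39.6%), whereas gene bodies took up 40.3% of autosomal bases and 46.2% of the superdomains.

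Starts on the outer and on the inner side of an edge differed in CpG content and direction. Starts were counted separately for each superdomain. A start between close neighbours, such as that of Mul1, could thus enter the outer side repeatedly. Some outer starts, such as that of Myh8, lay inside a neighbouring superdomain. Within 10 kb outside the edges there were 364 such entries of protein-coding starts, of which 59.3% (54.2 to 64.3%) were CpG-rich. This compares with 30.8% (25.9 to 36.3%) of the 295 starts within 10 kb inside and 45.7% of all genes. Of the outer entries, 73.9% (69.2 to 78.1%) were transcribed away from the superdomain for which they were counted. A start between close neighbours, such as that of Mul1, entered with both directions. Of the inner starts, 41.0% (35.6 to 46.7%) were transcribed towards the outside. Only 14 of the outer starts had a site, but the rule itself keeps sites out of the first 5 kb. Among these 14 were the starts of Myh8, Slc24a4, Sncb and Rtl6, which lay inside a neighbouring superdomain. At least 1 start was found within 10 kb outside in 284 of the superdomains, and at least 1 CpG-rich start in 182. The intervals of the outer and inner shares do not overlap, but they cover the counting of starts only and take repeated entries as independent.

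Gene starts and sequence were also compared by distance from the edge, again with each edge counted separately. In the first 5 kb outside, there were 21.9 starts per Mb and 63.3% of them were CpG-rich, compared with 15.3 per Mb and 31.9% in the first 5 kb inside. At 20 to 25 kb, the densities were 16.8 per Mb outside and 14.4 per Mb inside, and 53.4% and 39.1% of the starts were CpG-rich, so a smaller difference remained at this distance. Repeats made up 32.7% of the first 5 kb outside but 25.2% at 20 to 25 kb outside, and 23.9% and 23.2% at the same distances inside. The band of repeats coincides with the 5 kb in which the rule allows no site. Its repeat share was similar to the 31.6% of the gaps within superdomains, whereas its CpG ratio of 0.229 was above the 0.187 of these gaps. GC content changed little, from 45.9% to 46.9% across the edge.

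**Figure D5:**
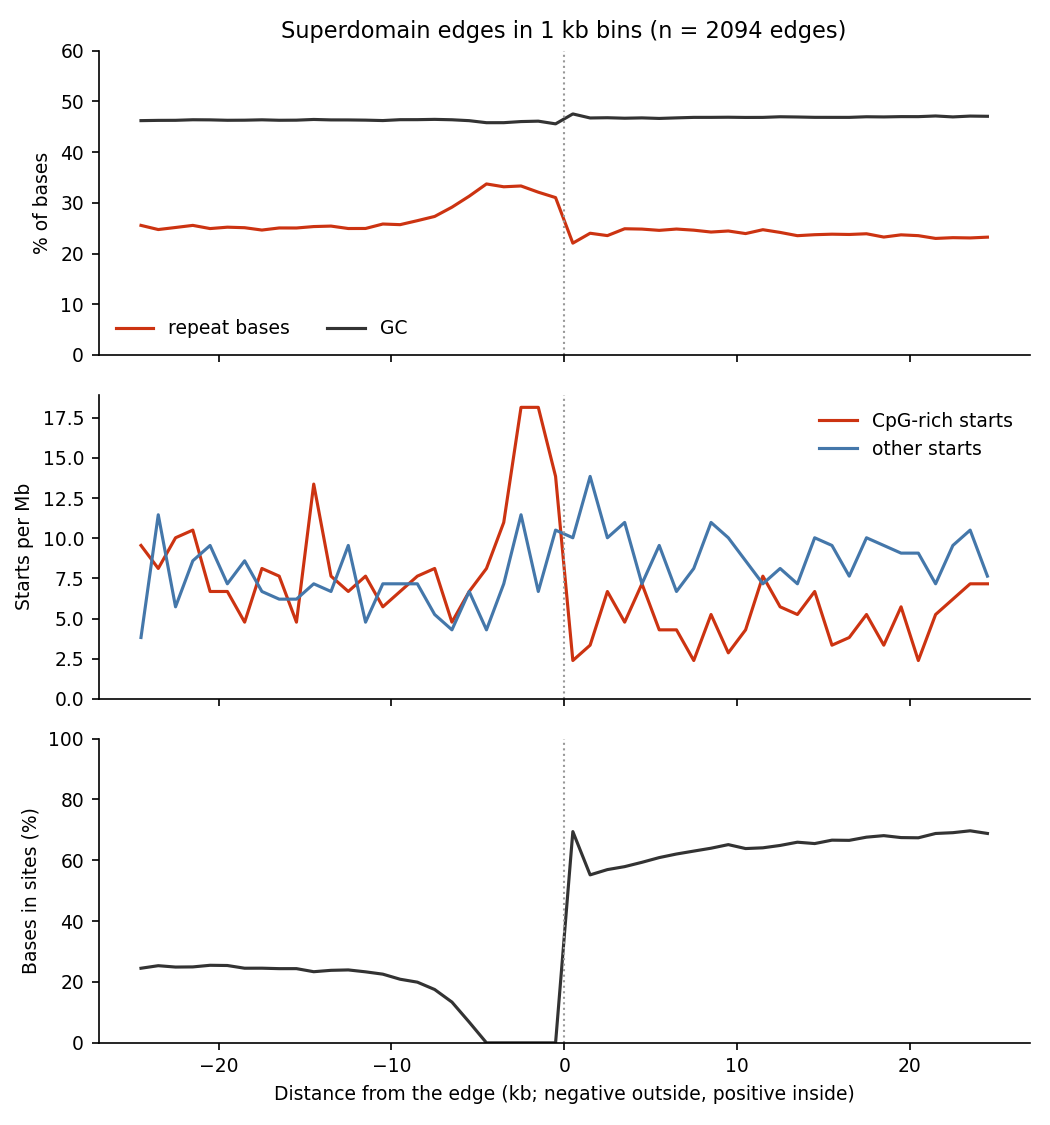
Repeat and GC content (% of bases), protein-coding starts per Mb and share of bases in sites (%) in 1 kb bins around the 2094 edges, with negative distances outside. CpG-rich starts are most frequent in the first kilobases outside and fewer inside, and the absence of sites in the first 5 kb outside is set by the rule.

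Single superdomains illustrate these edges. The Lhx1 superdomain began 0.858 kb from the start of Aatf, which is transcribed away from it, and Lhx1 itself started 11.2 kb inside. On the right side of the superdomain of Golga7b and Crtac1, R3hcc1l started 1.15 kb outside and was likewise transcribed away. Both outer starts are CpG-rich and had no site, as seen in the sequences above. The longest superdomain began 1.41 kb from Lrpap1, a chaperone of lipoprotein receptors, whose start missed the CpG threshold with a ratio of 0.554. Other edges had no start nearby, such as the left edge of the Hoxc superdomain, where Calcoco1 followed at 129.3 kb.

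A short string from the motif of the insulator protein CTCF was not more frequent at edges than within superdomains. The letters AGGGGGCA, the core of the motif, were searched on both strands within 5 kb on either side of each edge and were present at 37.3% of the edges (95% Wilson interval 35.3 to 39.4%). Windows of the same length contained them in 40.5% (39.5 to 41.5%) inside superdomains and in 25.4% along the autosomes. The looser string AGNGGGCA was present at 87.4% of the edges, in 88.2% of the windows inside and in 77.2% along the autosomes. Other forms of the motif were not searched, so its frequency as a whole is not known from these values. These sets also differ in GC content, and a match of these letters does not show binding.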

How the data were processed

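H3K27me3 ChIP-seq was performed on 12 libraries and 2 inputs. Trim Galore, BWA (mm10, GRCm38.p6) and samtools were used by the authors for trimming, alignment and filtering. They merged replicates with Picard, brought libraries to the lowest coverage and called broad peaks with MACS. Versions and thresholds are not given in the sources used here. The deposited list holds site positions in bp, without any count, score or value per library (columns with such values that fit no sample: 0), so all values are descriptions of 1 list, without replicates or tests between groups. More or deeper libraries could have given more sites, and the mark may be present where no site was called. Positions were read as counted from 0 and are printed counted from 1.

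Sites on chromosomes 1 to 19 were joined and selected as stated, and compared with the GRCm38.p6 sequence and GENCODE M21 (python 3.11.15, numpy 2.4.6, pandas 2.3.3, matplotlib 3.10.9). A gene was inside when the 5′ end of its record was inside. Repeats are soft-masked bases. Intervals are 95% Wilson intervals. RefSeq promoters were matched by symbol, for 885 of the 1221 genes inside. The functions were tested on simulated data. The members and the gene lists were chosen with earlier results of these data known. Named are the 12 longest superdomains, the 5 with most starts, the 5 highest and the 5 lowest in cover, those next to the limit, clusters of 4 or more genes of a stem, the 3 highest and lowest chromosomes, and list members (all where 12 or fewer were inside, otherwise the 4 in the longest superdomains). Some items that this rule covers are not reported here. Genes next to edges, the genes of the printed promoters and single Hox genes were chosen after their values were seen. Alternatives were other joining distances, span limits, site widths, gene definitions, CpG thresholds and motif windows, and the X chromosome.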

Additional observations from a re-analysis of the deposited data

Results flagged for a closer look

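The rule was applied to autosomes, and on the X chromosome the same joining gave 40 further intervals of at least 50 kb, a signal in data that the description above does not use. They had a summed length of 4.25 Mb, a median span of 81.3 kb and 45 protein-coding starts. Only 50.6% of their length was covered, compared with 69.5% on the autosomes, and their widest sites had a median of 3914 bp compared with 10033 bp. The longest, of 230.9 kb (chrX:93908481-94139381), held the starts of AU015836 and Zfx. No cause of the difference was tested, and the list does not allow sites on the X to be divided by treatment.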

How the results depend on the processing

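No paired analysis was possible because values for single libraries are lacking, which also precludes leaving out a replicate. A count, length or distance that changed by over 1.5 times is given, and a share that left its 95% interval or, for the covered share, the spread between superdomains. The number of superdomains was 189, 642 and 1778 with sites closer than 1, 3 and 10 kb joined, 2048 and 297 with spans of at least 30 and 100 kb, and 668 and 445 with only sites at least 500 bp and 1 kb wide. In the same order, the length was 14.4, 55.02 and 195 Mb for the joining distances, 44.8 Mb for spans of at least 100 kb, and 59.5 and 38.4 Mb for the site widths. The number without a protein-coding start was 60, 194, 639, 899, 68, 201 and 110. The number of starts inside was 198, 764 and 2253 for the joining distances, 486 for spans of at least 100 kb and 572 for sites of at least 1 kb. The median span was 134 kb for spans of at least 100 kb. The covered share was 93.9% and 52.0% with 1 and 10 kb joined. The CpG-rich share of starts inside was 51.0, 39.7 and 32.0% with 1, 3 and 10 kb joined, 41.6% with sites of at least 1 kb, and 28.6% with thresholds of 55% GC and a CpG ratio of 0.65. With 1 kb joined, it was thus above the 45.7% of all genes, so the lower share inside depends on the joining distance. The median distance from an edge to a start was 17.2 kb when any transcript counted. Edges in gene bodies were 40.2% with 1 kb joined and 34.8% for spans of at least 100 kb. Edges with the motif were 18.2% within 2 kb, 87.4% for AGNGGGCA, 41.8% with sites of at least 1 kb and 45.0% with 1 kb joined. The GC content and the density of starts did not move in any alternative.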
